A study of Rattus norvegicus with 24 samples.

Results

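Hemoglobin and heme synthesis genes were followed here through 24 RNA-seq libraries as a measure of the blood left in the tissue. The members were taken by symbol from the rows of the expression table, with comma-joined symbols split, and all 6 were found among its 17711 rows. They are the globin rows Hbb, Hba2 and LOC100134871, the heme synthesis genes Alas2 and Alas1, and the red cell anion exchanger Slc4a1. Hba2 shares a joined row with Hba1, so both genes were read as a single value. LOC100134871 carries the NCBI gene ID of Hbbl1 in the RefSeq table, a gene of the beta globin cluster, and is counted with the globins here.

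The striatum and the whisker follicles were collected from male Sprague–Dawley rats that had pressed a lever for intravenous methamphetamine (MA group) or for saline (SA group). Both groups had first been trained on food pellets and carried a catheter, and only rats that learned the lever were kept. The MA group received 0.05 mg/kg per infusion in daily 2 h sessions for 16 days, and the SA group had the same sessions with saline alone. Each of the 4 groups held 6 libraries, the rats' age and whether the tissue was cleared of blood are not stated in the sources, and libraries are named by the column index of 0 to 5. The tissues carried their own markers, with 8 medium spiny neuron genes summing to between 2268 and 5571 FPKM in the striatum libraries and at most 26.9 in the follicle, and 9 follicle keratin and hair genes to between 69640 and 116507 in the follicle and at most 59.5 in the striatum. Both tissues came from the same rats, but rat numbers were not tied to that index. The p-values below measure the spread between libraries, and those that set one tissue against the other treat its libraries as independent although they share rats.

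Hemoglobin carries oxygen as a tetramer of alpha and beta globin chains, each holding a heme. Heme is built from glycine and succinyl-CoA, and the first and rate-limiting step is made by an aminolevulinate synthase. Alas2 encodes the form of erythroid cells and Alas1 the form that other tissues use. Slc4a1 encodes band 3, which exchanges chloride and bicarbonate across the red cell membrane and anchors its skeleton. Mature mammalian red cells have no nucleus, and the globin and Alas2 transcripts of blood are carried largely by young red cells. In bulk tissue, fewer cells of a type and less RNA per cell cannot be told apart.

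The RefSeq promoters of 5 members (GRCr8, 250 bases before to 50 bases after the start of the gene) are shown as background. Whether their motifs bear on the levels below was not tested. Capitals mark the motifs searched on both strands, which were AGATAA (bound by GATA factors), CACCC (bound by Kruppel-like factors), the CCAAT box and the TATAAA form of the TATA box. Hba2 was matched through its synonym Hba-a2 and LOC100134871 by its gene ID, and Slc4a1 had no entry in the table of promoters. The windows are Hbb at chr1:167663672-167663971 (minus strand), Hba2 at chr10:15829089-15829388 (minus strand), LOC100134871 at chr1:167650186-167650485 (minus strand), Alas2 at chrX:22895200-22895499 (plus strand) and Alas1 at chr8:115768593-115768892 (minus strand).
Hbb: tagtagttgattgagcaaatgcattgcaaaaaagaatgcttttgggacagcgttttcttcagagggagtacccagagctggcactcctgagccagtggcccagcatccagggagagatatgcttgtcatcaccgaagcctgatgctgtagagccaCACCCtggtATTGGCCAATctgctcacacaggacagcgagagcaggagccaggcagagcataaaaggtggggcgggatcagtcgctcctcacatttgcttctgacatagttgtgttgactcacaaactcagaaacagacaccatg
Hba2: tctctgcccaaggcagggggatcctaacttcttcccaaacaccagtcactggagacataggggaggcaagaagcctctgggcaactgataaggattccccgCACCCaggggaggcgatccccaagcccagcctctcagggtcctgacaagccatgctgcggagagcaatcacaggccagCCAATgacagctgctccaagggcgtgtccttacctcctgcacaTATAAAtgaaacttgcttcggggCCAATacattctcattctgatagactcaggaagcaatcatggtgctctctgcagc
LOC100134871: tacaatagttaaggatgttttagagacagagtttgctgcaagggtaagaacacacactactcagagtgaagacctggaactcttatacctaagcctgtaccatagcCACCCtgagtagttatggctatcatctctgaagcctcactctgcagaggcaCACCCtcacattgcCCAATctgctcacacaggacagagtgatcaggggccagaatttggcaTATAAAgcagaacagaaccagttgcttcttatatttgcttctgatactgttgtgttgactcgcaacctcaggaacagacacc
Alas2: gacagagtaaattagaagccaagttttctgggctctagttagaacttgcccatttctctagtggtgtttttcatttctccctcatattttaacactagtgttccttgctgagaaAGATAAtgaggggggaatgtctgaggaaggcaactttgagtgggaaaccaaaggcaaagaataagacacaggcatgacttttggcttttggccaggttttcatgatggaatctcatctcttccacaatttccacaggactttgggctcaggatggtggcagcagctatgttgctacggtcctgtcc
Alas1: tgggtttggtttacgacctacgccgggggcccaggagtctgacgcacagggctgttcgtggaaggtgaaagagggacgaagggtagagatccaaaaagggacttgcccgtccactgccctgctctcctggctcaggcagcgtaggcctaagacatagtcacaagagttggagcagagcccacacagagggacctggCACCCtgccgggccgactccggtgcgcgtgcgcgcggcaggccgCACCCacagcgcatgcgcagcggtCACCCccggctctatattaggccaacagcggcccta

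The Hbb window held CACCC at position -95 and CCAAT on opposite strands at -86 and -81, side by side. The Hba2 window held CACCC at -149, CCAAT at -71 and -5, and TATAAA at -28. The LOC100134871 window held CACCC at -144 and -93, CCAAT at -79 and TATAAA at -32. AGATAA was found in the Alas2 window alone, at -136, and that window held none of the other 3 motifs. The window lies at the annotated start of the gene. Whether that is the start used in erythroid cells was not tested, so the motifs of the erythroid Alas2 promoter may differ. AGATAA was searched in that exact form only, so other sequences bound by GATA factors were not looked for. Alas1 held CACCC 3 times, at -54, -10 and 15. Of the 33469 promoters of this length, 11.6% held AGATAA, 54.9% CACCC, 37.5% CCAAT and 14.2% TATAAA. The Hba-a1 and Hba-a2 windows were 96% identical, those of LOC100134871 and Hbb-bs 94.4%, and the Alas1 and Alas2 windows 45.0%.

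In the striatum the 3 globin rows and Alas2 were higher on average in the MA group, Alas1 was level, and none of the 5 members tested was called. Values are FPKM, that is, sequenced fragments scaled to transcript length and to the mapped reads of the library. Called means a Benjamini-Hochberg adjusted p under 0.05 in limma on log2(FPKM + 1), over all rows with a mean FPKM of at least 1 and a fold, on the same scale, that reaches 1.5. In the striatum 0 of the 5 members tested were called, against 0.00943% of the 10607 rows tested. At an unadjusted p under 0.05, 3 members were higher in the MA group (Hbb, Hba2 and Alas2) and none was lower, where 5.38% of all rows were higher by that measure. The median log2 fold change of the 5 members was 1.09, and that of all rows was 0.00. All 6 members had groups that overlapped, and 0.358% of the rows had groups that did not.

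**Figure D1:**
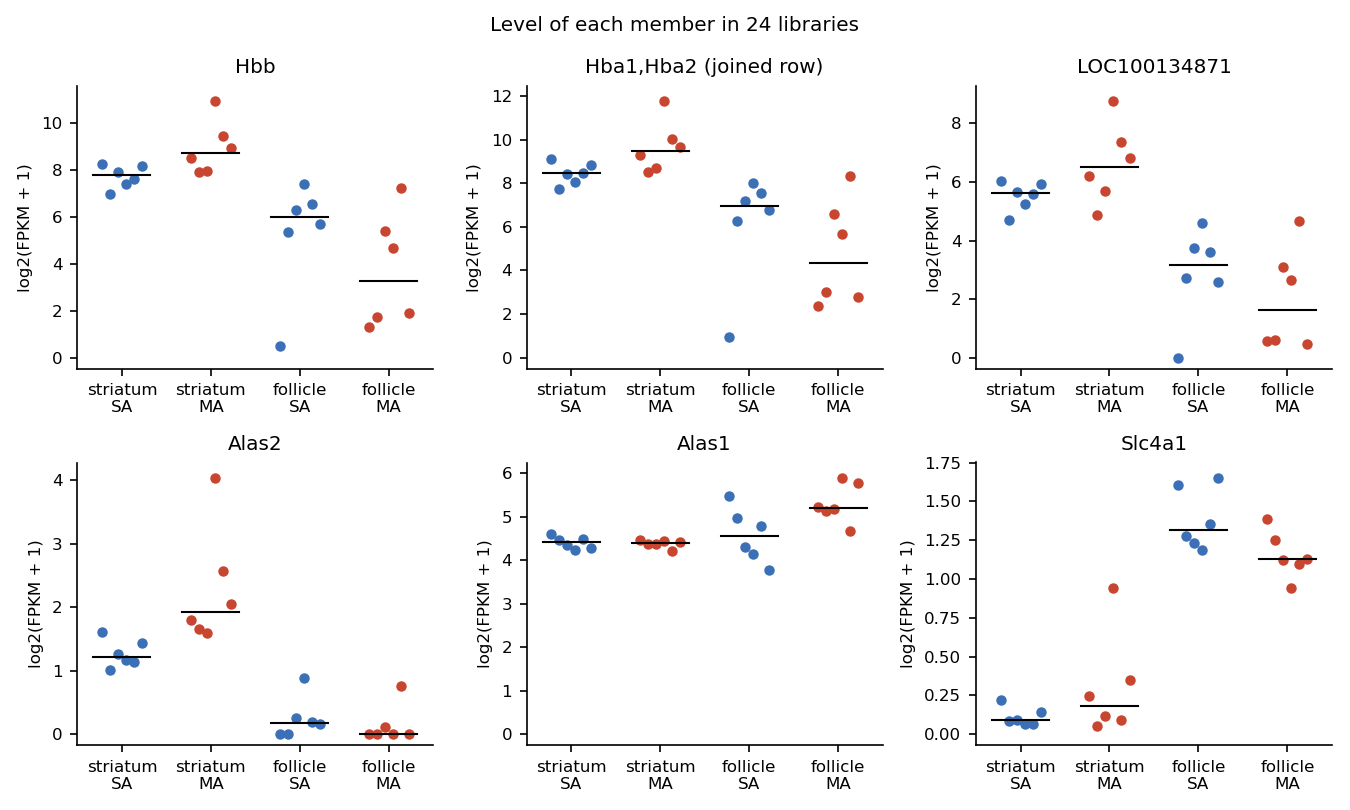
Level of each member as log2(FPKM + 1), with 1 point per library in order of index, SA in blue, MA in red and the group median as a black line. In the striatum MA library 3 stands highest for 5 of the 6 members, and 4 whisker follicle libraries lie near 0 for Hbb.

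Hbb, the adult beta globin, ran from 124 to 298 FPKM in the SA striatum with a median of 216. In the MA striatum it ran from 238 to 1917 with a median of 422. The means were 218 ± 68.4 (SD, n = 6) and 656 ± 641 (SD, n = 6), and 4 of the 6 MA libraries lay above the highest SA library. The log2 fold change was 1.22 (SE 0.44, limma adjusted p = 0.577), and the exact permutation test over 924 assignments gave a two-sided p of 0.0216. That p is unadjusted, and the smallest that 6 against 6 libraries allow is 0.00216.

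The Hba1,Hba2 row, the alpha globins, had SA libraries from 214 to 550 FPKM (median 351) and MA libraries from 366 to 3443 (median 714). Its log2 fold change was 1.22 (SE 0.46, limma adjusted p = 0.577, exact permutation p = 0.0238). Hba1 and Hba2 are near-identical copies, and how the authors' counting split or joined their reads is not stated in the sources. LOC100134871 had SA libraries from 24.7 to 64.6 FPKM (median 48.3) and MA libraries from 28.2 to 430 (median 92.1), with a log2 fold change of 1.09 (SE 0.52, limma adjusted p = 0.607, exact permutation p = 0.0887). The rows of Hbb and the alpha globins thus passed the single-gene test, and LOC100134871 did not.

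Alas2, the erythroid aminolevulinate synthase, had the smallest permutation p of the members. SA libraries ran from 1.02 to 2.05 FPKM (median 1.33) and MA libraries from 2.02 to 15.4 (median 2.82), so only MA library 2, at 2.02, lay under the highest SA library. The log2 fold change was 1.02 (SE 0.35, limma adjusted p = 0.577) and the exact permutation p was 0.00433. On the log2(FPKM + 1) scale the change of such a low gene is understated, and the fold on that scale was 2.02. The ratio of the median FPKM was 2.13. The ratio of the mean FPKM was 3.50, and 2.06 without MA library 3. Slc4a1 was below the level tested, from 0.0471 to 0.164 FPKM in SA and 0.0360 to 0.922 in MA (exact permutation p = 0.177).

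Alas1, the aminolevulinate synthase of most tissues, was close in both groups. SA libraries ran from 17.8 to 23.3 FPKM (median 20.4) and MA libraries from 17.5 to 21.0 (median 20.0). The log2 fold change was -0.03 (SE 0.08, limma adjusted p = 0.941), with a 95% interval from -0.19 to 0.14, and its sign turned when single libraries were left out.

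**Figure D2:**
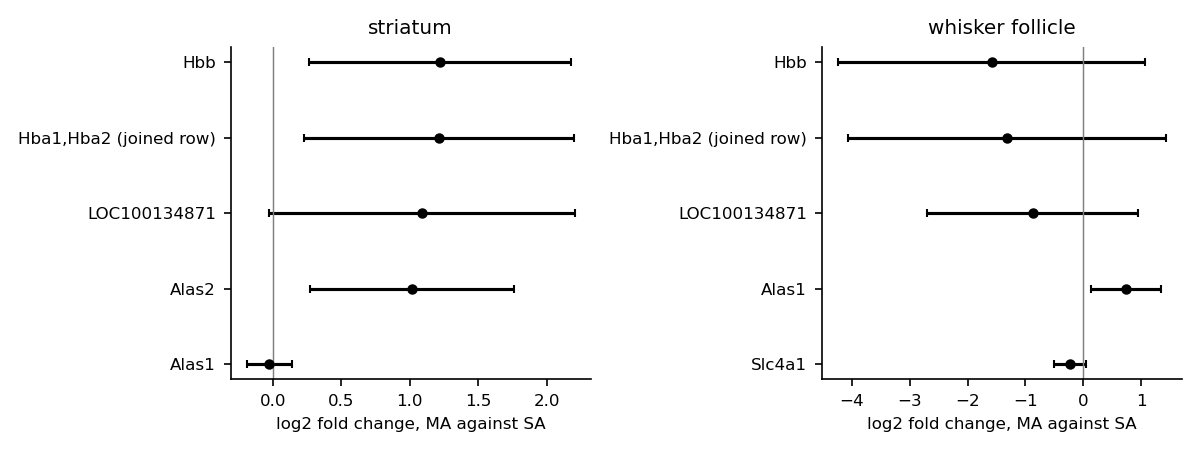
Log2 fold change of MA against SA on the log2(FPKM + 1) scale for the members tested by limma, with 95% intervals as bars (6 libraries per group). In the striatum the intervals of Hbb, Hba1,Hba2 and Alas2 lie above 0 and that of Alas1 spans it, and in the follicle only the interval of Alas1 lies above 0.

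The size of the difference depended on MA library 3. That library had the highest value of 5 of the 6 members (all but Alas1), whereas it was the highest for 7.35% of the rows tested. Its Hbb of 1917 FPKM was followed by 693 in MA library 4 and 487 in MA library 5. Without MA library 3 the ratio of mean Hbb fell from 3.01 to 1.85 (exact permutation p = 0.0433), and without libraries 3 and 4 it was 1.52 (p = 0.0857). For Alas2 the ratio was 2.06 without library 3 (exact permutation p = 0.00649) and 1.71 without both (p = 0.0143). For the Hba1,Hba2 row it was 1.79 (exact permutation p = 0.0455) and 1.52 (p = 0.1), and for LOC100134871 1.80 (p = 0.180) and 1.39 (p = 0.395). Without library 3 Hbb ran from 238 to 693 FPKM in the MA group, and Alas2 from 2.02 to 4.97. Leaving out libraries 3 and 4 together was chosen after the values were seen.

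The more abundant globin rows kept similar proportions to Hbb in both groups of the striatum. The Hba1,Hba2 row stood at 1.67 ± 0.162 FPKM per FPKM of Hbb in SA and 1.66 ± 0.116 in MA (SD, n = 6 each, exact permutation p = 0.916). LOC100134871 stood at 0.216 ± 0.0144 per Hbb in SA and 0.203 ± 0.0428 in MA (exact permutation p = 0.669), where MA library 1 was lowest at 0.119. The low row LOC287167 did not keep a proportion, and ran from 0.0871 to 3.67 per 100 FPKM of Hbb over the 12 libraries. Alas2 stood at 0.678 ± 0.0945 per 100 FPKM of Hbb in SA and 0.769 ± 0.0974 in MA (exact permutation p = 0.130). Of 18 such ratio tests over both tissues, these 3 gave adjusted values of 0.916, 0.752 and 0.249. The 6 globin rows (these 3 members with Hbb-b1, LOC689064 and LOC287167) together held 0.106% to 0.260% of all FPKM in the SA libraries and 0.183% to 1.61% in the MA libraries (exact permutation p = 0.0346, 0.1 adjusted over the 18).

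Across the 12 striatum libraries the levels moved with Hbb. On the log2(FPKM + 1) scale Pearson's r with Hbb was 0.994 for Hba2, 0.975 for LOC100134871, 0.975 for Alas2 and 0.842 for Slc4a1, while it was -0.02 for Alas1. Spearman's rho was 0.979, 0.979, 0.916, 0.790 and -0.08 in that order. Permutation p, adjusted over the 10 relations computed, was 3.33e-05 for each of the first 3 (the smallest 100000 permutations can give before adjustment is 1e-05), 0.0067 for Slc4a1 and 0.949 for Alas1, and for rho 5e-05, 5e-05, 0.0003, 0.00525 and 0.821. Without MA libraries 3 and 4, which lie farthest from the median of Hbb, r was 0.980, 0.901, 0.918, 0.838 and 0.127. Within the SA group alone r was 0.959, 0.984, 0.920, 0.708 and 0.103, and within the MA group alone 0.997, 0.975, 0.981, 0.860 and 0.07. The within-group values rest on 6 libraries each and were not tested, and Slc4a1 lay under 0.2 FPKM in all SA libraries. Both values of a point come from the same library.

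**Figure D3:**
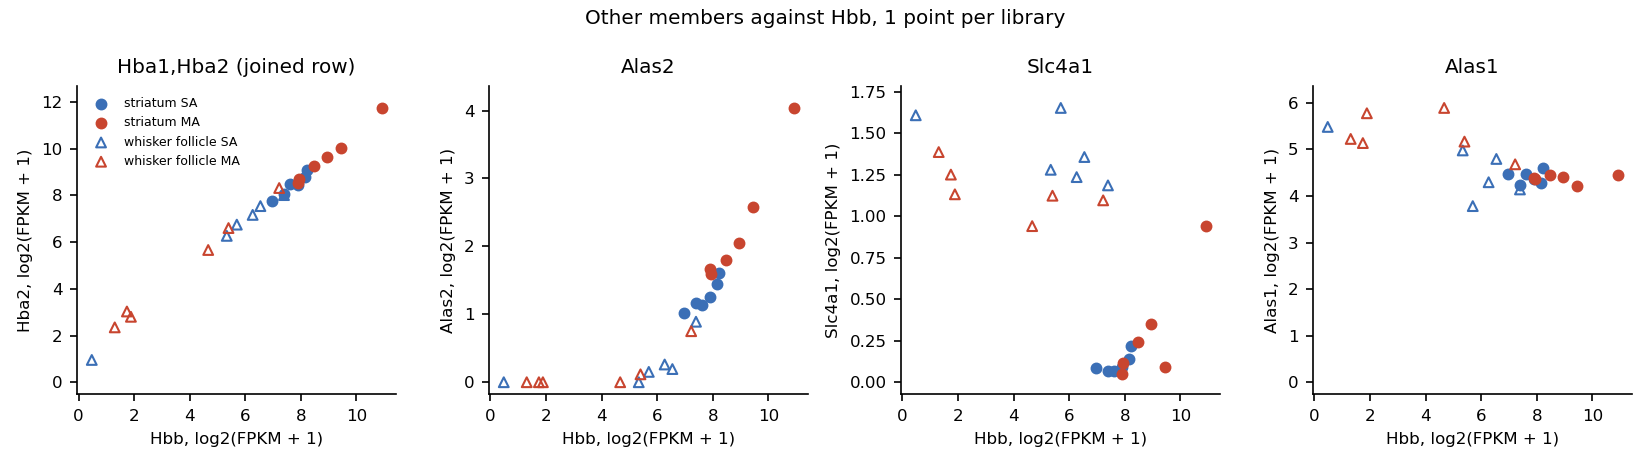
Hba1,Hba2, Alas2, Slc4a1 and Alas1 against Hbb, all as log2(FPKM + 1), with 1 point per library (filled circles striatum, open triangles whisker follicle, SA blue, MA red). Hba1,Hba2 rises with Hbb in both tissues and Alas2 in the striatum, Alas2 is at 0 in 6 of the 12 follicle libraries, and the follicle libraries hold Slc4a1 at 0.918 FPKM or more at every level of Hbb.

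The rows most like Hbb, ranked by Pearson r over the 12 striatum libraries among rows that are no member, were globins first. Hbb-b1, a second beta globin row, had an r of 0.98 and LOC689064, by its gene ID the beta globin Hbb-bs, 0.97. Alox15 (an arachidonate lipoxygenase, 0.94), Alpl (a phosphatase of bone and vessel walls, 0.93) and S100a6 (a calcium-binding protein, 0.92) followed. Htra3 (a secreted protease), Slc31a1 (a copper importer), Otulin (a linear ubiquitin protease) and Colec12 (a scavenger receptor of vessels) were at 0.91, and Tgm2 (tissue transglutaminase) at 0.90. These are descriptions over 12 libraries with no p. Without MA library 3 they ran from 0.75 to 0.96.

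Among the other globins of the table, Hbb-b1 had means of 32.1 ± 13.1 FPKM in the SA striatum and 90.4 ± 97.6 in MA. LOC689064 had means of 2.33 ± 0.804 and 6.84 ± 6.96, and LOC287167, by its gene ID Hba-a3, 3.20 ± 2.25 and 12.4 ± 14.2. All 3 were highest in MA library 3. Hbe1, Hbe2 and Hbg1, globins of the embryonic type, were listed at 0 in all 24 libraries, and Hbz was above 0 in 1 library only. Globins of other cells were lower on average in the MA group. Cygb, a globin of fibroblast-like cells, had means of 39.3 in SA and 31.3 in MA (log2 fold change -0.32, limma adjusted p = 0.629) and Ngb, of neurons, 6.19 and 4.78 (log2 fold change -0.22, limma adjusted p = 0.81).

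The later steps of heme synthesis gave no calls in the striatum. Of the 7 enzymes after the aminolevulinate synthases, 4 had a log2 fold change above 0 and 3 below, with a median of 0.00 beside 0.00 for all rows, and 0 were called or at an unadjusted p under 0.05. Cpox, coproporphyrinogen oxidase, had the smallest p, with 12.3 ± 1.9 FPKM in SA and 10.6 ± 0.38 in MA (log2 fold change -0.19, limma adjusted p = 0.614). Fech, which inserts the iron, had 13.7 in SA and 14.3 in MA. Of the 8 mitochondrial carriers and transporters of heme precursors and iron, 6 were above 0 and 2 below (median 0.10), and 0 were called. Slc25a37, mitoferrin of erythroid cells, stood at 1.70 in SA and 2.00 in MA.

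Genes of heme breakdown and iron handling gave no calls in the striatum. Hmox1, the inducible heme oxygenase, stood at 5.78 ± 1.0 FPKM in SA and 7.94 ± 2.6 in MA (log2 fold change 0.35, limma adjusted p = 0.638), and the constitutive Hmox2 at 51.5 and 47.2 (log2 fold change -0.12, limma adjusted p = 0.638). Of the 4 breakdown genes 3 were above 0 and 1 below. Of the 10 iron handling genes tested 6 were above 0 and 4 below, with a median of 0.03. Among them Hp, the haptoglobin that binds free hemoglobin, had means of 1.73 in SA and 1.03 in MA (log2 fold change -0.37, limma adjusted p = 0.607).

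Other red cell genes were mostly too low to test in the striatum. Of 23 in the list, 20 were in the table and 7 were tested, with 4 above 0, 3 below and 0 called. Bpgm, which makes the 2,3-bisphosphoglycerate of red cells and is also at a high level in brain here, had the only unadjusted p under 0.05, with 67.0 ± 3.2 FPKM in SA and 75.4 ± 7.8 in MA (log2 fold change 0.16, limma adjusted p = 0.603). Gata1, the erythroid transcription factor, was listed at 0 in all libraries. Ahsp, the chaperone of free alpha globin, named here after its values were seen, ran from 0 to 0.728 in SA and from 0 to 3.62 in MA, highest in MA library 3.

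Markers of several other cells were also high in MA libraries 3 and 4 of the striatum, and did not follow the globins in all other libraries. The summed FPKM of 10 granulocyte genes ran from 4.20 to 15.7 in SA and from 3.52 to 55.6 in MA, highest in MA library 3, where S100a8 was 19.0 and S100a9 28.3. S100a8 and S100a9 made up most of the sum in that library. Mpo and Elane, of the same list, stayed near 0, at means of 0.0351 and 0.0156 in MA. In MA library 3 the summed level over the SA median was 9.44 for the 6 globin rows, 8.28 for granulocytes, 3.90 for smooth muscle and pericytes, 3.58 for fibroblasts and matrix, 1.48 for endothelium, 1.78 for lymphocytes and 1.12 for medium spiny neurons. In MA library 4 these were 3.08, 3.91, 1.86, 1.49, 1.91, 1.21 and 0.824. MA library 4 also held the highest value of 20% of all rows tested in the striatum, and MA library 3 of 7.35%. In MA library 5 the globins were at 2.31 and granulocytes at 2.29, but smooth muscle was at 0.931 and lymphocytes at 0.610. SA library 1 had the lowest globins, at 0.586, and the highest granulocyte sum of the SA group, at 2.34. All 11 endothelial rows had a log2 fold change above 0 (median 0.23), as did 7 of 7 of smooth muscle (0.29), 7 of 8 of matrix (0.41) and 4 of 4 of granulocytes (0.48), with 0 called in each list. The platelet sum, mostly Gp1bb, was 1.17 times the SA median in MA library 3, 1.48 in library 4 and 0.790 in library 5, while Pf4 alone was 15.5 FPKM in library 3 against 0.936 to 4.04 in SA. The part of these cells in the globin difference was not tested.

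**Figure D4:**
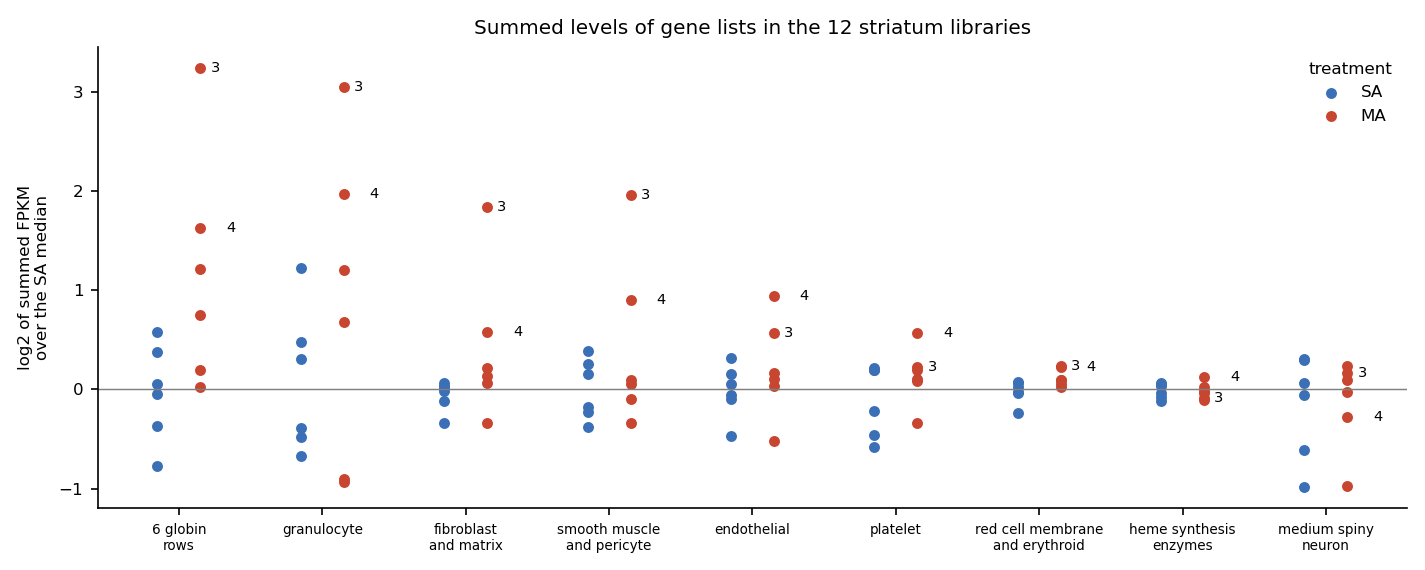
Log2 of the summed FPKM of each gene list over its SA median in the 12 striatum libraries, with SA in blue, MA in red, and MA libraries 3 and 4 marked by their index. Globins and granulocyte genes spread the most, with MA library 3 at 9.44 and 8.28 times the SA median, and heme synthesis enzymes span the narrowest range of the lists drawn.

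In the whisker follicle the globins were lower on average in the MA group and Alas1 higher, and none was called. There 0 of the 5 members tested were called, and 0% of the 9138 rows were. At an unadjusted p under 0.05 only Alas1 was higher in the MA group, where 5.25% of all rows were. The median log2 fold change of the 5 members was -0.87 beside -0.01 for all rows. All 6 members overlapped between the groups, and 0.482% of the rows did not.

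Hbb ran from 0.393 to 167 FPKM in the SA follicle (median 63.4) and from 1.47 to 148 in the MA follicle (median 13.6). The libraries split into 4 under 3 FPKM (SA library 0 and MA libraries 0, 1 and 5) and 8 from 24.4 FPKM up, with both groups among each. The log2 fold change was -1.58 (SE 1.23, limma adjusted p = 0.535, exact permutation p = 0.297), with a 95% interval from -4.24 to 1.07. Without SA library 0, the only SA library under 3 FPKM, it was -2.54 (exact permutation p = 0.0649). Leaving out each of the 12 libraries in turn gave -2.54 to -1.10 (exact permutation p from 0.0649 to 0.455). The Hba1,Hba2 row ran from 0.938 to 258 FPKM in SA and from 4.10 to 318 in MA (log2 fold change -1.32, SE 1.27, limma adjusted p = 0.607), and without SA library 0 the change was -2.35 (exact permutation p = 0.0887). LOC100134871 ran from 0 to 23.2 and from 0.383 to 24.4 (log2 fold change -0.87, SE 0.84, limma adjusted p = 0.609), and without SA library 0 the change was -1.45 (exact permutation p = 0.119). Left out in turn, single libraries gave -2.35 to -0.83 for the Hba1,Hba2 row and -1.45 to -0.53 for LOC100134871. Alas2 was listed above 0 in 4 SA and 2 MA libraries, at most at 0.854 (exact permutation p = 0.5).

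Alas1 in the follicle had SA libraries from 12.8 to 43.7 FPKM (median 22.7) and MA libraries from 24.6 to 58.4 (median 35.7). Its means were 24.8 ± 11.4 and 40.4 ± 12.9 (SD, n = 6 each). The log2 fold change was 0.73 (SE 0.28, limma adjusted p = 0.465, exact permutation p = 0.0433), with all 6 MA libraries above the SA median. Without SA library 0 it was 0.91 and passed the test (limma adjusted p = 0.0261, exact permutation p = 0.0130), in a fit that called 1219 of the 9059 rows tested. Over the 12 fits with 1 library left out it ran from 0.57 to 0.91, with a limma adjusted p under 0.05 in 1. The exact permutation p was under 0.05 in 3 of the 12 and at most 0.0887. Slc4a1 had means of 1.63 ± 0.370 and 1.24 ± 0.236 FPKM (log2 fold change -0.23, limma adjusted p = 0.466, exact permutation p = 0.0498), with 4 of the 6 MA libraries below the lowest SA library. Neither member followed Hbb: over the 8 libraries from 24.4 FPKM of Hbb up, r was -0.60 for Alas1 (permutation p = 0.145 adjusted over the 10 relations; -0.12 without the 2 farthest libraries) and 0.09 for Slc4a1 (adjusted p = 0.932). Over the same 8, r with Hbb was 0.985 for Hba2, 0.935 for LOC100134871 and 0.908 for Alas2 (adjusted p = 0.000248, 0.00235 and 0.000396).

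The proportions between the globins were wider in the follicle. The Hba1,Hba2 row stood at 1.98 ± 0.278 per Hbb in SA and 2.43 ± 0.402 in MA (exact permutation p = 0.0390, 0.1 adjusted over the 18 ratio tests). LOC100134871 stood at 0.111 ± 0.0588 per Hbb in SA and 0.209 ± 0.0666 in MA (exact permutation p = 0.0108, adjusted 0.0390). In 4 libraries these ratios rest on an Hbb under 3 FPKM.

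Endothelial genes were near 0 in the follicle. The summed FPKM of the 11 endothelial genes ran from 0.482 to 1.78 in SA and 0.574 to 0.846 in MA, with Cdh5 and Cldn5 listed at 0 in every follicle library, where the striatum held 114 to 196 in SA. Of the heme synthesis enzymes 2 were above 0 and 5 below (median -0.09), of the mitochondrial transporters 4 and 4, of the breakdown genes 1 and 3, and of 9 iron handling genes 5 and 4, with 0 called in each list. The ferritin chain Ftl1 (21.2 and 13.6 FPKM, log2 fold change -0.58, limma adjusted p = 0.465) and the heme transporter Slc48a1 (72.3 and 57.0, -0.32, adjusted p = 0.465) had unadjusted p under 0.05. Ahsp did not follow the globins in the follicle. It was highest in MA library 4 (10.6 FPKM), which had the highest Hba1,Hba2, but at 0 in SA library 3, which had the highest Hbb, and at 5.44 in MA library 1, where Hbb was 2.34. The granulocyte list had 3 of 3 rows below 0 (median -0.64) and 0 called, with sums from 91.3 to 398 in SA and from 76.3 to 253 in MA. S100a9 had means of 26.0 and 11.8 (limma, unadjusted p = 0.0242). The low-Hbb libraries had sums of 91.3 (SA library 0), 216, 76.3 and 111 (MA libraries 0, 1 and 5). Mpo and Elane were at 0 in all follicle libraries. S100a8 alone ran from 28.1 to 229 FPKM in the follicle, against at most 19.0 in the striatum. Which follicle cells carried the transcripts of this list was not tested, nor was any link to the globin levels.

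No member was called for a MA effect that differed from tissue to tissue. Of the 5 tested over all 24 libraries, which share rats between the tissues, 0 were called, beside 0.0091% of the 10985 rows, and 2 had an unadjusted p under 0.05, beside 11.4% of all rows. Those were Alas2, with an effect 1.12 higher in the striatum on the log2 scale (limma adjusted p = 0.426), and Alas1, with an effect 0.76 lower there (-0.76, adjusted p = 0.426). Alas2 reached the mean FPKM needed for this fit through the striatum alone. In the follicle its means were 0.218 (SA) and 0.128 (MA) FPKM, too low to be tested there. Its value of 1.12 thus sets the striatum effect against a follicle level near 0, and cannot tell whether the MA effect differs. For Hbb the difference was 2.80 (limma adjusted p = 0.445, 95% interval from -0.03 to 5.64).

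In rats without MA the globins were higher in FPKM in the striatum than in the follicle, and Slc4a1 was lower. Of the 4 members tested, 3 were called, all higher in the striatum, where 42.5% of the 10952 rows were called higher and 74.5% in either direction. Hbb was higher by 2.42 on the log2 scale (limma adjusted p = 0.0212), the Hba1,Hba2 row by 2.32 (adjusted p = 0.0335) and LOC100134871 by 2.64 (adjusted p = 0.000906). With libraries scaled to a common median, Hbb (adjusted p = 0.0613) and the Hba1,Hba2 row (0.0886) no longer passed. The median of all rows was 0.24 higher in the striatum. All FPKM of a library summed to between 348717 and 371477 in the SA striatum and between 1.01e+06 and 1.52e+06 in the SA follicle. The FPKM of the 2 tissues are thus not on a common scale. As a share of that sum the 6 globin rows held 0.186% on average in the striatum and 0.0182% in the follicle (exact permutation p = 0.00216, 0.00974 adjusted over the 18 ratio tests). LOC100134871, Alas2 and Slc4a1 did not overlap between the tissues, as 67.7% of the rows tested did not. Groups that do not overlap always give the smallest exact permutation p, 0.00216.

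Alas2 ran from 1.02 to 2.05 FPKM in the striatum and from 0 to 0.854 in the follicle (exact permutation p = 0.00216, the smallest possible), and stood at 0.678 per 100 FPKM of Hbb in the striatum and 0.191 in the follicle (exact permutation p = 0.00216, adjusted 0.00974). Slc4a1 went the other way, from 0.0471 to 0.164 in the striatum and from 1.27 to 2.14 in the follicle (exact permutation p = 0.00216). Per 100 FPKM of Hbb it was 0.0370 ± 0.0129 in the striatum, and in the follicle it ran from 0.762 to 521 with a median of 2.70. Epb42, the protein 4.2 that binds band 3, was listed at 0.418 to 0.889 in the SA follicle and at 0 to 0.208 in the SA striatum, while Ank1, of the red cell skeleton, was at 0 in 5 of the 6 SA follicle libraries. Both were named after their values were seen. Alas1 was not called between the tissues (log2 difference -0.17, limma adjusted p = 0.495), but passed with libraries scaled to a common median (-0.62, limma adjusted p = 0.0169).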

How the data were processed

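RNA of 24 libraries was polyA-selected, prepared with an unstranded TruSeq kit and sequenced in pairs. The authors computed the FPKM values and deposited them as 1 table. The paper names Cutadapt, TopHat2 with rn6 and Cufflinks, whereas the submitters' notes list rn6, STAR 2.6.0c, bcl2fastq and Cufflinks 2.2.1. Neither the gene annotation nor a scaling of the libraries is given in the sources used here. The table holds no read counts. From the steps between low values the libraries of a tissue were estimated to differ in depth from 0.885 to 1.19 (striatum) and 0.756 to 1.37 (follicle) times their average, so the spread between 6 libraries is the error given.

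Here log2(FPKM + 1) of the deposited FPKM was compared with limma 3.58.1 (R 4.3.3, moderated by an intensity trend) over rows whose mean FPKM reached 1 in the libraries fitted, with Benjamini-Hochberg adjustment over all rows tested. A row was called when its adjusted p was under 0.05 and its fold reached 1.5. Single members and ratios were compared by exact permutation (SciPy 1.17.1) over 924 assignments, two-sided, with each member's p unadjusted. The members and lists were chosen with earlier results of these data known. The text names all 6 members, up to 4 genes with the smallest p of each list and the 10 rows most like Hbb in the striatum. Genes not tested in the tissue described, among them Gata1, Mpo, Elane, Cdh5, Cldn5 and the embryonic globins, were named besides these. Others are marked as named after their values were seen. Columns were assigned by their names, none was left out, and promoters are those of RefSeq (GRCr8), used for sequences only, since the table was made on rn6. Alternatives were other pseudocounts (0.1 and 0.5), filters (none, and a mean of 5), scaling, no trend, weighted libraries, other thresholds and leaving out each library.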

Additional observations from a re-analysis of the deposited data

Results flagged for a closer look

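In 10 of the 24 sets of 6 libraries (6 members in 4 groups), the highest library lay far from the others by Dixon's test at its 95% level, which chance gives in about 1 of 20 sets, and the members of a library are not independent. That rate assumes normally spread values, and FPKM are skewed: on the log2(FPKM + 1) scale 5 sets passed the same limit, of which 3 were among these 10 (Slc4a1 in the MA striatum and Alas2 in both follicle groups). Striatum MA library 3 stood apart for Hbb (1917 FPKM, next 693), the Hba1,Hba2 row (3443, next 1038), LOC100134871 (430, next 162), Alas2 (15.4, next 4.97) and Slc4a1 (0.922, next 0.273). Whisker follicle MA library 4 stood apart for Hbb (148, next 41.2), Hba1,Hba2 (318, next 96.3), LOC100134871 (24.4, next 7.55) and Alas2 (0.683, next 0.0839). Follicle SA library 3 stood apart for Alas2 (0.854, next 0.198). Alas1 was flagged in no group.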

How the results depend on the processing

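The number of members called in the striatum stayed at 0 under every alternative but the unadjusted p with the fold, which gave 3. It was also 0 when MA libraries 3 and 4 were left out together, a choice made after seeing the data. In the follicle it was 1 with weighted libraries and with the unadjusted p and the fold, and 0 to 1 when single libraries were left out (1, Alas1, without SA library 0). For the difference between tissues it was 3 with weighted libraries and 2 with the unadjusted p and the fold, and 0 to 3 with single libraries left out (3 without follicle SA library 0). For the 2 tissues in SA it was 5 with no filter on low values, 2 with libraries scaled to a common median (LOC100134871 and Alas1, without Hbb and Hba2) and 2 to 3 with single libraries left out. Alas1 in that comparison passed with the common median (-0.62), turned sign with weighted libraries (0.029), and ranged from -0.33 to 0.0064 with single libraries left out. Its MA effect in the striatum ranged from -0.061 to 0.012 in both tests, and that of Alas2 in the follicle from -0.23 to 0.023, by the permutation test. The cause was not tested. No paired analysis was possible because the columns carry an index from 0 to 5 that the labels do not tie to the rat numbers. The unknown counts limit the precision of low members such as Slc4a1.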
